A study of Homo sapiens with 12 samples.

Results

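The genes described here are 54 genes of the actin cytoskeleton, of focal adhesions and of the YAP pathway, taken by gene symbol from a table of 20114 symbols and followed in T47D cells given a progestin. All 54 were in the table, and all 54 were among the 13872 genes with enough reads to test, MSN only through its 10 nM libraries. T47D is an established human breast carcinoma line with luminal features that carries progesterone and estrogen receptors. The cells were starved of serum and then given vehicle, 100 pM or 10 nM of compound, and total RNA was taken after 6 h or 18 h. This gives 6 groups, namely vehicle, 100 pM and 10 nM at 6 h and the same at 18 h, each with 2 libraries numbered replicate 1 and replicate 3. All groups share the line, the phenol red-free medium and the starvation in charcoal-stripped serum, and the labels give the dose without naming the compound, which the series title calls a progestin. The title asks whether different progestin levels give different outputs, so each dose was compared with vehicle and the doses with each other at each time. Whether the libraries within each group are separate cultures is not stated, and p-values therefore speak only of the spread among these 12 libraries, which may be technical.

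Actin filaments are built by nucleating and elongating proteins, bundled by crosslinkers such as the alpha-actinins, and pulled by non-muscle myosin, whose activity is set by the small GTPase RhoA and its ROCK kinases. Filament bundles end in focal adhesions, plaques of vinculin, talin, paxillin and zyxin that tie the bundles to integrins. Tension in this system feeds into YAP and its relative TAZ (gene WWTR1), coactivators that enter the nucleus, bind TEAD factors and raise genes such as CTGF and CYR61, while the LATS kinases and the angiomotins hold them in the cytoplasm. A second route runs from free actin to the MKL coactivators of SRF, which binds the CArG box in front of many actin-related genes.

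Total counts ran from 34204970 to 41373890 per library. Of the 10 luminal markers, 9 were read in every library and TFF1 lay between 0 and 0.612 CPM (counts scaled to library size). COL1A1 was read at 66.1 to 114 CPM while COL1A2, the partner chain of the same collagen, was at 0 in 11 of 12 libraries. VIM lay between 0.717 and 2.38 CPM. Of the 5 immune markers, CD68 was read in every library at 2.16 to 3.92 CPM. PTPRC, CD3E, CD14 and MS4A1 each stayed at or below 0.127 CPM. The summed luminal markers were lower at 10 nM. At 6 h they were at 7010 to 7040 CPM against 11700 to 11800 CPM in vehicle. At 18 h they were at 5330 to 5420 against 11100 to 11800 CPM. The summed fibroblast markers at 18 h were at 118 to 122 CPM in vehicle. They were at 83.4 to 84.2 CPM at 100 pM and 73.9 to 81.5 CPM at 10 nM. Most of that sum was COL1A1, with a median of 105 CPM over all libraries, and COL3A1 came next with 3.9 CPM. The summed basal markers were at 8.48 to 9.68 CPM in vehicle and 10.6 to 13.6 at 10 nM for 18 h, and the endothelial ones at most 0.927 CPM in any library. The part of these markers in the results below was not tested. The lists are named for cell types, while all libraries come from the T47D line. In bulk RNA, fewer cells of a type and less RNA per cell cannot be told apart.

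The 54 genes together took 1.37% to 1.70% of the reads in vehicle and 100 pM at 6 h and 1.82% to 1.97% at 10 nM, where the groups did not overlap. At 18 h the order turned, with 1.54% to 1.68% in vehicle, 1.45% to 1.54% at 100 pM and 1.30% to 1.43% at 10 nM. FLNA alone gave 8.88% to 21% of these reads and MYH9 9.52% to 15.1%, shares that also depend on transcript length. In the account that follows, the pair of values given for a group is replicate 1 and then replicate 3 (n = 2), log2 fold changes are given ± SE, and "rose" or "fell" marks an adjusted p under 0.05 in edgeR's quasi-likelihood test, adjusted over all 13872 genes. Passing a test has the same meaning, in the fit without replicate number unless that number is mentioned. Groups said to stand apart or not to overlap are only described. With 2 libraries in each, groups often separate without a difference, and the share of all genes that do is not given here.

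At 100 pM few of the genes moved. Only CDC42EP3 and LIMA1 rose at 6 h and none fell, against 2.88% of all genes called up and 0.606% called down (3.48% in either direction). At 18 h EVL and PALLD fell and none rose, against 3.89% called down and 6.57% called up (10.5% in either direction). These counts are sensitive to how the spread is estimated: with replicate number in the fit they became 9 at 6 h, where 12.2% of all genes were called, and 22 at 18 h, where 34.1% were. The added ones at 6 h were ACTN1, CYR61, ENAH, EZR and VASP upwards and EVL and PDLIM5 downwards. At 18 h 8 were added upwards (ACTN1, CDC42EP3, DIAPH1, DIAPH3, EZR, PDLIM1, TPM3 and VASP) and the rest downwards, among them CTGF, TPM1, MYL9, AMOTL1, AMOTL2 and LATS2. At 6 h none of the 54 was called without vehicle replicate 3, and at 18 h EVL alone was called whichever vehicle or 100 pM library was left out.

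At 10 nM for 6 h, 18 of the 54 genes rose and 6 fell, against 22.6% and 19.4% of all genes (42% in either direction). The median log2 fold change over the 54 was 0.17, and over all genes it was -0.02. At 18 h the balance was the other way, with 12 genes up and 18 down against 19% and 15.2% of all genes (34.1% in either direction), and the median was -0.21 against 0 over all genes. The total share of genes called was thus close to the background at 6 h and above it at 18 h, mainly through the genes that fell. The 54 were chosen with earlier results of these data known, so this comparison with all genes is not independent support. With replicate number in the fit 35 of the 54 were called at 6 h and 42 at 18 h, where 62.4% and 56% of all genes were; genes below that did not pass at 10 nM but did in that fit were AMOTL1, ENAH, LPP, MYH10, PALLD, RHOA, RHOC, ROCK2, SRC, TAGLN2 and TPM1 at 6 h, and AMOTL1, CNN2, CYR61, EZR, LPP, MYL12A, PTK2, RHOC, RND3, ROCK2, SRC and YAP1 at 18 h. Between vehicle at 18 h and vehicle at 6 h none of the 54 was called (0 in edgeR, 0 with an unadjusted p under 0.05 and 0 in DESeq2), and among all 13872 genes edgeR called 0, with 178 at an unadjusted p under 0.05.

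**Figure D1:**
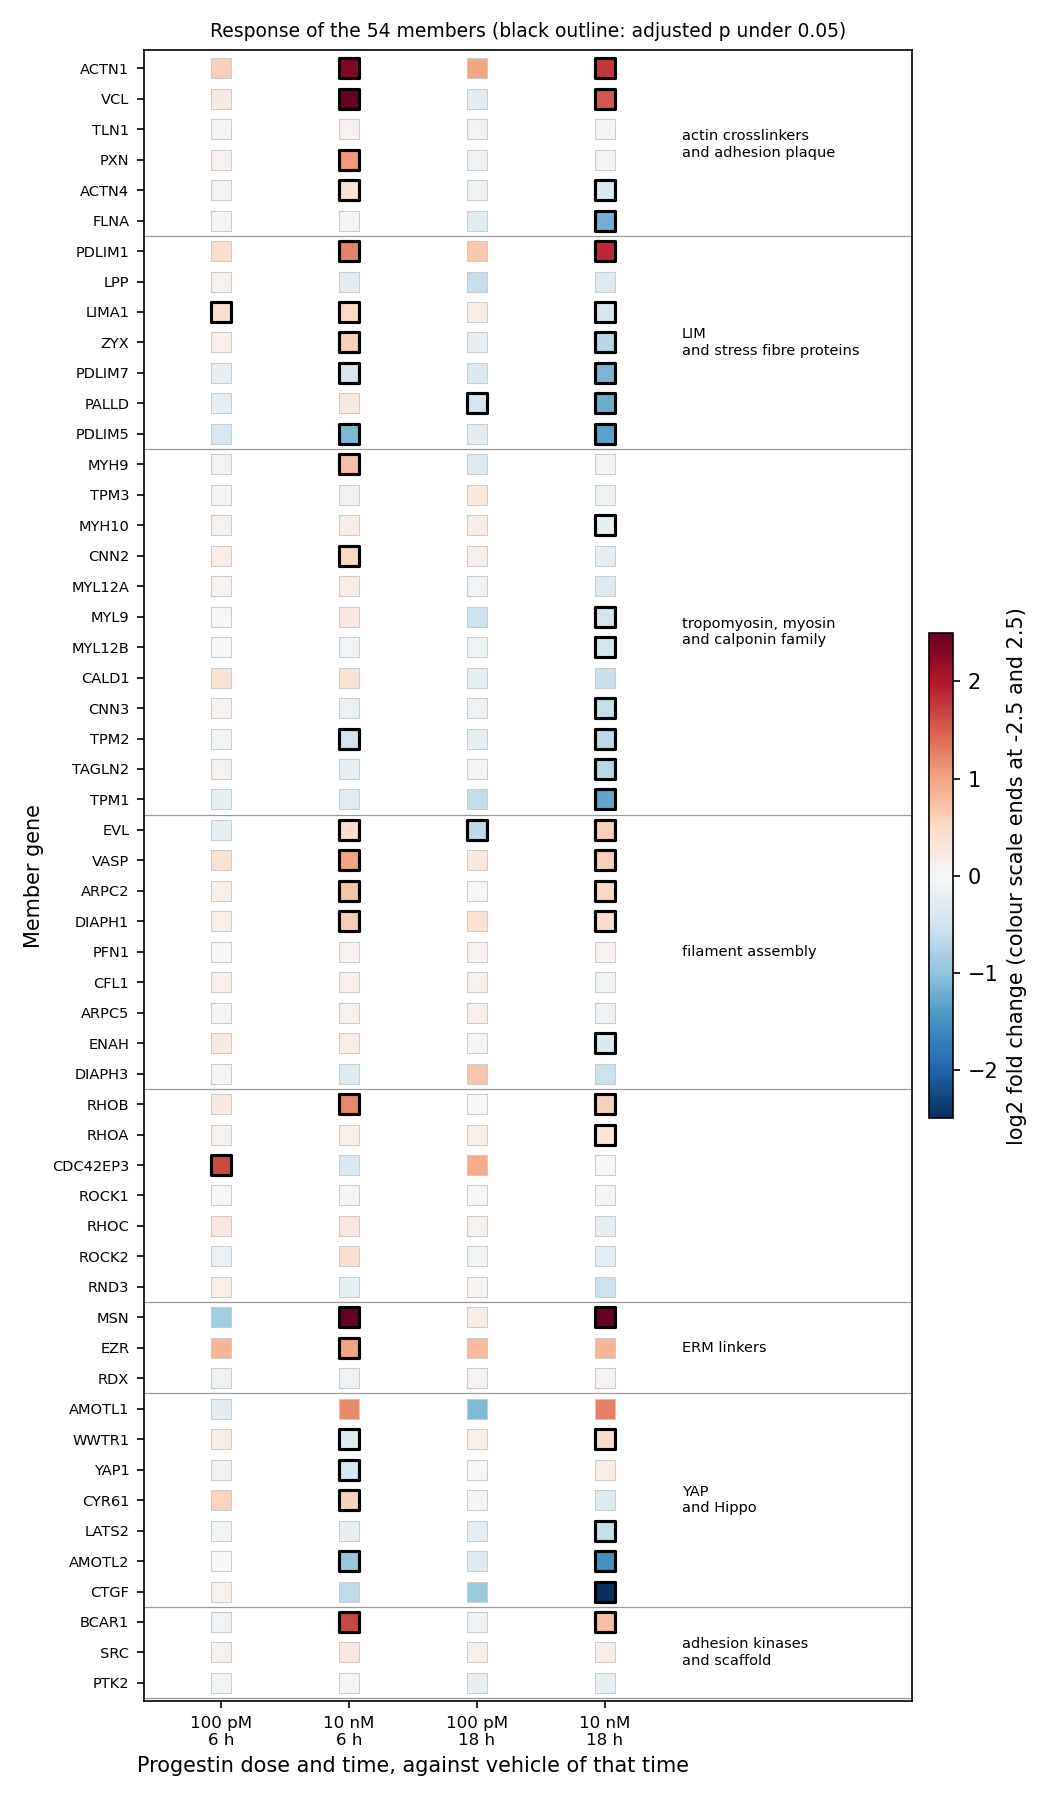
Log2 fold change of the 54 genes (rows, grouped by role) against vehicle (columns: 100 pM and 10 nM at 6 h and 18 h), with colour from lower (blue) to higher (red) and a black outline where the edgeR adjusted p was under 0.05. The 10 nM column at 6 h holds 18 outlined rises and 6 outlined falls, and the 10 nM column at 18 h holds 12 and 18.

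The promoters of 3 genes on which the account turns are shown, as the 250 bases before the RefSeq start of each gene (GRCh38.p14, written 5′ to 3′ on the gene's strand). FLNA (chrX:154374635-154374884, minus strand), the filamin that took the largest share of the members' reads in every vehicle and 100 pM library, has its CArG box in capitals, beginning 94 bases before the start. VCL (chr10:73997866-73998115, plus strand), with the largest rise apart from that of the barely read MSN, and CTGF (RefSeq CCN2, chr6:131951373-131951622, minus strand), with the largest fall, have the TEAD core CATTCC in capitals, read here from the other strand as GGAATG.
FLNA: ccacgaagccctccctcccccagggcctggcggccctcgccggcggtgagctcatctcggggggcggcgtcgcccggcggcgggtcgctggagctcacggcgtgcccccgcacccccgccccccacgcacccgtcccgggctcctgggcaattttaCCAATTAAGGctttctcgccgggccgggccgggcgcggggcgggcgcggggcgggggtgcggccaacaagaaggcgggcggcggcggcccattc
VCL: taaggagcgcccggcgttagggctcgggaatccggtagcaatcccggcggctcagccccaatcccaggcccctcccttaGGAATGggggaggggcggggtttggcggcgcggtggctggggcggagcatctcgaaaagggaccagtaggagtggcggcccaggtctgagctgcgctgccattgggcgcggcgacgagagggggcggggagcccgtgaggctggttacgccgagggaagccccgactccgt
CTGF: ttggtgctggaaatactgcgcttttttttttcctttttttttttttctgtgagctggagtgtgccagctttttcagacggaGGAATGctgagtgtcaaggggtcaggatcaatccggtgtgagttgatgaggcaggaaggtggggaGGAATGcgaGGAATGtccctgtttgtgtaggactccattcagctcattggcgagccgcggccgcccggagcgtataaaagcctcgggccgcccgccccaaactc

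The CTGF window holds 3 copies of the TEAD core, beginning 169, 104 and 95 bases before the start, and the VCL window holds 1, beginning at 171. Windows were matched for 50 of the 54 genes; MYL9, CYR61, PTK2 and SRC had none. On either strand, the CArG box was in 4 of the 50 windows (FLNA, CNN2, RND3 and ROCK2; 8%), against 1.16% of the 35116 windows in the RefSeq table and 1.02% of the 10340 windows of tested genes. CATTCC was in 8 (VCL, MYH9, MYH10, CALD1, PFN1, ROCK2, YAP1 and CTGF; 16%), against 11.9% and 9.62%. The steroid receptor core TGTTCT was in 0 of the 50, against 12.4% and 7.58%. These matches describe the letters in 250 bases only, and the motifs do not overlap one another in the windows shown.

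Of the 6 crosslinkers and adhesion plaque proteins, 4 rose and none fell at 10 nM for 6 h (all genes, 22.6% up and 19.4% down), and 2 rose and 2 fell at 18 h (all genes, 19% up and 15.2% down). VCL, encoding vinculin, which links talin to actin, was at 308 and 257 CPM in vehicle, 381 and 269 CPM at 100 pM and 1540 and 1590 CPM at 10 nM at 6 h. At 18 h its libraries lay at 271 and 288, 221 and 247, and 905 and 725 CPM in the same order. The 10 nM libraries stood apart from the other groups at both times, with a rise of 2.47 ± 0.18 at 6 h (edgeR adjusted p = 2.03e-05) and 1.54 ± 0.18 at 18 h (edgeR adjusted p = 0.000267). At 100 pM its log2 fold change was 0.20 ± 0.18 at 6 h and -0.26 ± 0.18 at 18 h, and neither passed the test.

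ACTN1, encoding alpha-actinin-1, the crosslinker of stress fibres and adhesions, was at 210 and 148 CPM in vehicle, 351 and 198 at 100 pM and 934 and 840 at 10 nM at 6 h. The 18 h values were 229 and 178, 506 and 302, and 816 and 563 CPM. The 10 nM libraries were the highest at each time, and the vehicle and 100 pM libraries overlapped at 6 h but not at 18 h. ACTN1 rose at 10 nM by 2.31 ± 0.36 at 6 h (edgeR adjusted p = 0.00101) and by 1.76 ± 0.35 at 18 h (edgeR adjusted p = 0.00489). Its difference at 100 pM for 18 h, 0.99 ± 0.34, did not pass (edgeR adjusted p = 0.109). ACTN4, its non-muscle paralog, changed less and in both directions at 10 nM, with 0.38 ± 0.07 at 6 h and -0.36 ± 0.07 at 18 h.

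PXN, encoding the adhesion scaffold paxillin, rose at 10 nM for 6 h (1.09 ± 0.12) and was at -0.06 ± 0.12 at 18 h, where its libraries overlapped those of vehicle. FLNA, encoding filamin A, which crosslinks filaments into networks, was at 3160 and 2140 CPM in vehicle, 3270 and 2160 at 100 pM and 3100 and 2400 at 10 nM at 6 h. The 3 groups overlapped there, and replicate 1 was higher than replicate 3 in each. At 18 h FLNA was at 3430 and 2570, 2570 and 2330, and 1420 and 1170 CPM, and both 10 nM libraries lay below all others. It fell by 1.21 on the log2 scale (SE 0.26, edgeR adjusted p = 0.00783), a call that was not met without vehicle 18 h replicate 1 (edgeR adjusted p = 0.0523). TLN1, encoding the integrin activator talin-1, passed no test.

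Among the 7 LIM and stress fibre proteins, 3 rose and 2 fell at 10 nM for 6 h (all genes, 22.6% up and 19.4% down), and 1 rose and 5 fell at 18 h (all genes, 19% up and 15.2% down). PDLIM1, a PDZ and LIM protein that binds alpha-actinin, was at 44.7 and 25.8 CPM in vehicle, 63.5 and 32.5 at 100 pM and 91.6 and 75.1 at 10 nM at 6 h. It reached 154 and 124 CPM at 10 nM for 18 h, against 46.7 and 29.7 in vehicle and 74.3 and 47.9 at 100 pM. At both times it was highest at 10 nM, with rises of 1.24 ± 0.39 (edgeR adjusted p = 0.0326) and 1.86 ± 0.40 (edgeR adjusted p = 0.00708). The 6 h call was lost in 3 of the 4 fits that left out 1 library, namely without vehicle replicate 3 (edgeR adjusted p = 0.184), 10 nM replicate 1 (0.13) or 10 nM replicate 3 (0.0589). The 18 h call was lost without vehicle replicate 3 alone (edgeR adjusted p = 0.0555).

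Its relatives PDLIM5 and PDLIM7 went the other way at both times. PDLIM5 lay at 214 and 160 CPM in vehicle, 155 and 120 at 100 pM and 94.3 and 76.6 at 10 nM at 6 h, and at 217 and 196, 189 and 156, and 83.6 and 77 CPM at 18 h. The groups followed the dose without overlap at both times, and at 10 nM the gene fell by 1.13 (SE 0.18) and 1.36 (SE 0.18) on the log2 scale. PDLIM7 was at 35.2 and 32.9, 34.1 and 25.8, and 24.9 and 24.9 CPM at 6 h, and at 38.6 and 32.4, 29.1 and 25.1, and 16.1 and 16.2 CPM at 18 h. It fell by 0.45 (SE 0.14) at 6 h, a call lost when any of the 4 libraries was left out, and by 1.14 (SE 0.15) at 18 h, a call kept in each case.

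ZYX, LIMA1 and PALLD changed course between the times. Zyxin (ZYX), which recruits Ena/VASP proteins to strained filaments, was at 93 and 69.9 CPM in vehicle, 106 and 72 at 100 pM and 134 and 113 at 10 nM at 6 h, and at 103 and 92.7, 95.3 and 77.3, and 63.5 and 55.9 CPM at 18 h. The 10 nM libraries were the highest at 6 h and the lowest at 18 h, with 0.60 ± 0.21 and -0.71 ± 0.21. Both calls were close to the threshold (edgeR adjusted p = 0.045 and 0.0285) and were lost when single libraries were left out, 3 of the 4 at 6 h and each of the 4 at 18 h.

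LIMA1, encoding EPLIN, which bundles and stabilises filaments, was at 167 and 171 CPM in vehicle, 230 and 226 at 100 pM and 251 and 236 at 10 nM at 6 h. It rose at both doses there, by 0.44 ± 0.08 at 100 pM and by 0.53 ± 0.08 at 10 nM, and the 100 pM call was lost when any of the 4 libraries was left out. At 18 h it was at 157 and 175, 180 and 191, and 121 and 122 CPM, and fell only at 10 nM (-0.45 ± 0.08, edgeR adjusted p = 0.00262). Palladin (PALLD), a scaffold of stress fibre dense regions, was at 304 and 283, 260 and 231, and 353 and 345 CPM at 6 h and at 287 and 340, 211 and 247, and 130 and 133 CPM at 18 h. It fell in steps with dose at 18 h, by 0.45 (SE 0.11, edgeR adjusted p = 0.0358) at 100 pM and by 1.25 (SE 0.11, edgeR adjusted p = 6.54e-05) at 10 nM; the first call was lost when any of the 4 libraries was left out. LPP passed no test without replicate number in the fit, and with it passed at 10 nM at both times. Its replicates differed widely, with 251 and 120 CPM in vehicle at 6 h, and replicate 1 was higher in each group.

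Of the 12 genes of the tropomyosin, myosin and calponin family, 7 fell and none rose at 10 nM for 18 h, against 15.2% called down and 19% called up among all genes. All 12 had a negative fold change there, with a median of -0.49 against 0 over all genes. At 6 h 2 of them rose and 1 fell, against 22.6% and 19.4% of all genes, and the median was 0.03. TPM1, a tropomyosin that coats stress fibre actin, was at 518 and 312 CPM in vehicle, 419 and 302 at 100 pM and 395 and 289 at 10 nM at 6 h, with overlapping groups. At 18 h its libraries lay at 527 and 395, 319 and 281, and 205 and 167 CPM, in order of dose without overlap. The fall at 10 nM was 1.31 on the log2 scale (SE 0.28, edgeR adjusted p = 0.00709); at 100 pM the value was -0.62 ± 0.28 and did not pass (edgeR adjusted p = 0.202).

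TPM2 fell at both times, from 11.5 and 10.2 CPM in vehicle, with 9.81 and 10.8 at 100 pM, to 7.97 and 7.36 CPM at 6 h, and from 14 and 11.6 CPM, with 11.3 and 10.6, to 7.69 and 8.31 CPM at 18 h. The 10 nM libraries stood below the others at each time, and at 18 h the 100 pM libraries also lay below vehicle. The 6 h call was lost without vehicle replicate 1 or 10 nM replicate 3. MYL9, the regulatory light chain of smooth muscle type, was at 282 and 218, 283 and 217, and 320 and 265 CPM at 6 h and at 269 and 260, 196 and 170, and 186 and 191 CPM at 18 h. Both doses were thus below vehicle at 18 h, and only 10 nM passed the test (-0.49 ± 0.16, edgeR adjusted p = 0.0468, lost when any of the 4 libraries was left out; 100 pM -0.53 ± 0.16, edgeR adjusted p = 0.0764).

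MYH9, the heavy chain of non-muscle myosin IIA, was at 1850 and 1500 CPM in vehicle, 1760 and 1400 at 100 pM and 2760 and 2940 at 10 nM at 6 h. It rose at 10 nM by 0.76 ± 0.14 (edgeR adjusted p = 0.00212). At 18 h the values were 1850 and 1840, 1470 and 1490, and 1840 and 1680 CPM, and 10 nM no longer stood apart from vehicle beyond the spread (-0.07 ± 0.14). MYH10, the heavy chain of myosin IIB, fell by 0.23 (SE 0.07) at 18 h, a call lost when any of the 4 libraries was left out. Of the rest, CNN2 rose at 6 h (0.54 ± 0.11), while CNN3 (-0.59 ± 0.09), TAGLN2 (-0.69 ± 0.20) and MYL12B (-0.49 ± 0.12) fell at 18 h. With 1 library left out, the call of TAGLN2 was lost in 3 of 4 fits (edgeR adjusted p of 0.0604 to 0.148) and that of MYL12B in 2 (0.0728 and 0.0907). TPM3, CALD1 and MYL12A did not pass against vehicle at either time and dose, and MYL12A and MYL12B are near-identical copies between which reads may be split.

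**Figure D2:**
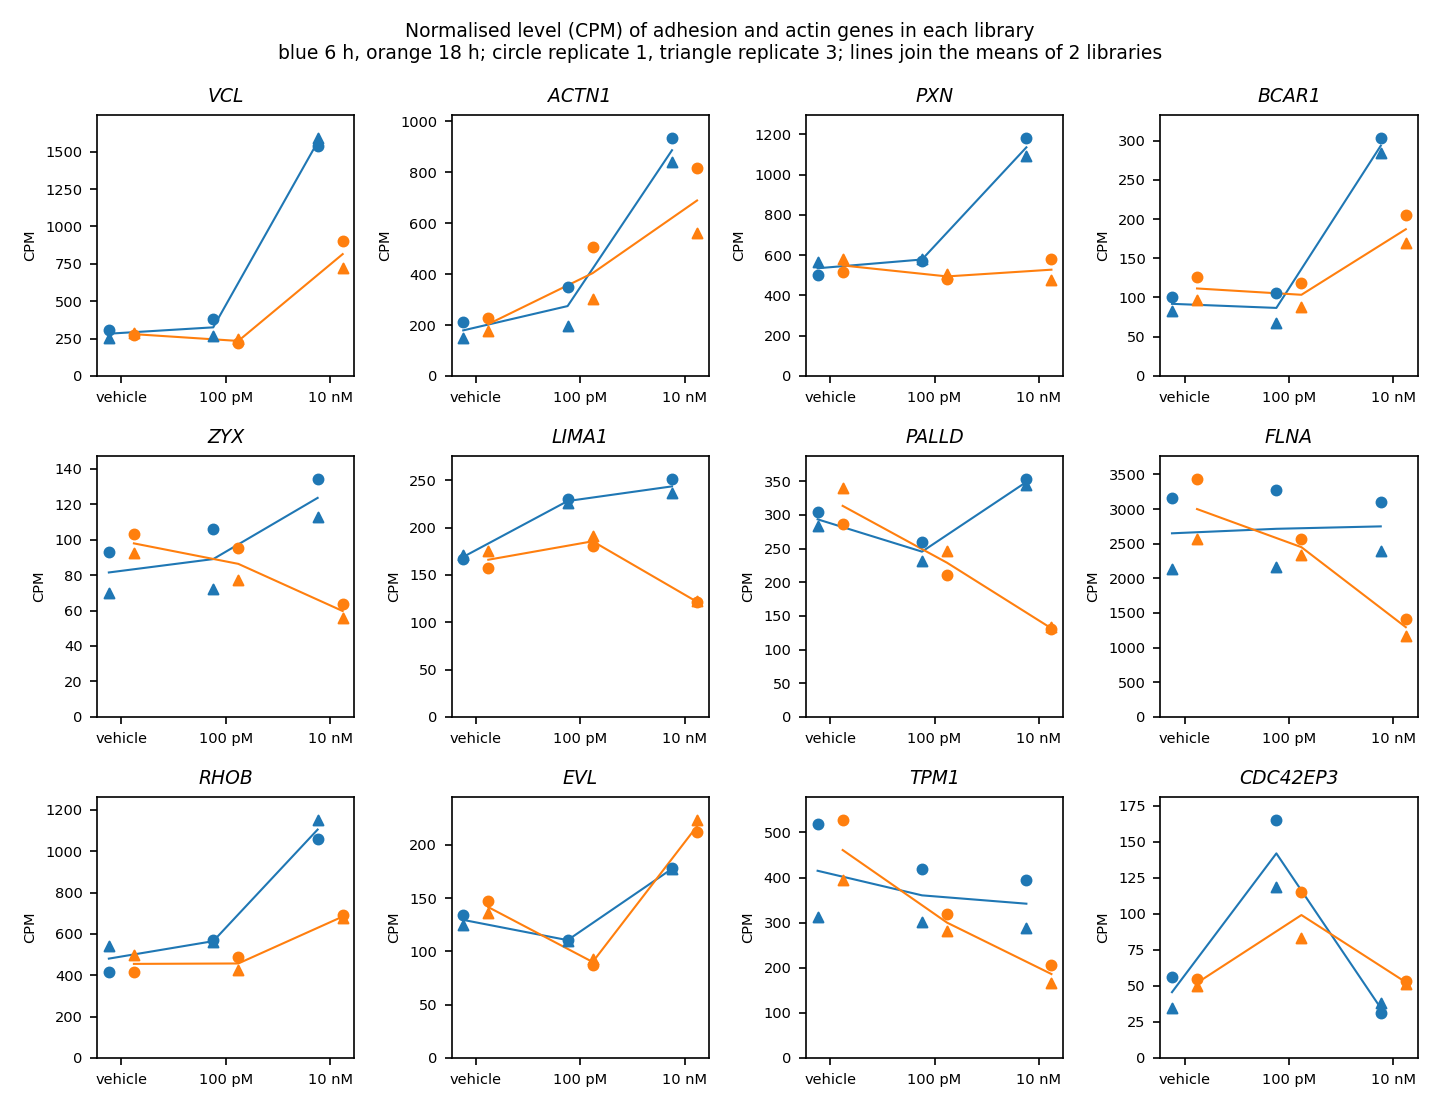
CPM in every library for 12 members by dose, at 6 h (blue) and 18 h (orange), with a circle for replicate 1, a triangle for replicate 3 and lines through the group means, each panel on its own axis from 0. VCL and ACTN1 are highest at 10 nM at both times, whereas both 10 nM libraries of FLNA and of TPM1 lie below the other groups only at 18 h.

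Of the 9 genes of filament assembly, 4 rose and none fell at 10 nM for 6 h (all genes, 22.6% up and 19.4% down), and the same 4 rose at 18 h while 1 fell (all genes, 19% up and 15.2% down). The 4 were VASP, which speeds elongation at filament tips (1.01 ± 0.10 and 0.60 ± 0.10), its relative EVL (0.46 ± 0.07 and 0.62 ± 0.07), the formin DIAPH1, an effector of RhoA (0.64 ± 0.13 and 0.47 ± 0.13), and ARPC2, a subunit of the Arp2/3 nucleator (0.72 ± 0.12 and 0.51 ± 0.12). The 18 h calls of DIAPH1 and ARPC2 were each lost in 3 of the 4 fits that left out 1 library (edgeR adjusted p of 0.0777 to 0.152 for DIAPH1 and 0.053 to 0.0725 for ARPC2). ENAH, the remaining Ena/VASP gene, fell at 18 h (-0.38 ± 0.11), a call lost when any of the 4 libraries was left out. ARPC5, CFL1 (cofilin, which severs filaments) and PFN1 (profilin-1, which delivers actin monomers) did not pass against vehicle; CFL1 has many processed copies in the genome, so its counts are uncertain.

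EVL was the only member called in opposite directions by the doses without replicate number in the fit. At 6 h it was at 134 and 125 CPM in vehicle, 111 and 110 at 100 pM and 178 and 177 at 10 nM. At 18 h it was at 147 and 136 in vehicle, 87.3 and 92.7 at 100 pM and 212 and 223 CPM at 10 nM. No groups overlapped at either time, and replicates of a group lay close together. At 18 h EVL fell by 0.65 (SE 0.08, edgeR adjusted p = 0.00125) at 100 pM and rose by 0.62 ± 0.07 (edgeR adjusted p = 0.000318) at 10 nM, and each call was kept whichever library of that time was left out. Among all genes, 0.245% were called down at 100 pM and up at 10 nM at 18 h. The comparisons share their vehicle libraries; between the doses themselves EVL was 2.42-fold higher at 10 nM (1.27 ± 0.08, edgeR adjusted p = 2.2e-05). At 6 h the value at 100 pM was -0.23 ± 0.07 and did not pass (edgeR adjusted p = 0.203), but with replicate number in the fit it did (edgeR adjusted p = 0.0405).

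DIAPH3, a formin of filopodia and cell division, was at 34.1 and 27.6, 34.7 and 29.2, and 25.9 and 23.8 CPM at 6 h and at 33.7 and 34.9, 44.8 and 65.5, and 18.9 and 27.9 CPM at 18 h. It did not pass against vehicle, and at 18 h it was lower at 10 nM than at 100 pM (-1.24 ± 0.22, edgeR adjusted p = 0.00422).

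RHOB, which is induced quickly by stress and growth factors, was at 418 and 543 CPM in vehicle, 570 and 560 at 100 pM and 1060 and 1150 at 10 nM at 6 h. At 18 h it was at 414 and 496, 490 and 424, and 692 and 676 CPM. The 10 nM libraries were the highest at both times, by 1.2 ± 0.14 at 6 h (edgeR adjusted p = 0.000233) and 0.59 ± 0.14 at 18 h (edgeR adjusted p = 0.0118; not met without vehicle replicate 1 or 10 nM replicate 1). RHOA rose by 0.33 ± 0.08 at 18 h, a call lost without vehicle replicate 3 (edgeR adjusted p = 0.0793); its processed copies in the genome make the count uncertain.

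CDC42EP3, an effector of CDC42 that organises septins and actin, responded to the lower dose. At 6 h it was at 56.3 and 35 CPM in vehicle, 165 and 119 at 100 pM and 31.1 and 38.1 at 10 nM. Only the 100 pM libraries stood apart there, with a 3.1-fold rise (1.63 ± 0.25, edgeR adjusted p = 0.00832; 0.0517 without vehicle replicate 3). It was lower at 10 nM than at 100 pM (-2.03 ± 0.26, edgeR adjusted p = 0.000438), and 1.16% of all genes shared both calls at 6 h, which use the same 100 pM libraries. At 18 h the values were 54.5 and 49.7, 115 and 83.4, and 53.7 and 51.4 CPM; the difference from vehicle at 100 pM was 0.93 ± 0.25 (edgeR adjusted p = 0.0502) and that between doses -0.92 ± 0.25 (edgeR adjusted p = 0.0269). RND3, which opposes RhoA signalling, was at 54.3 and 33.9, 57.4 and 40.2, and 45.4 and 30.9 CPM at 6 h and at 57.5 and 52.7, 62.7 and 51.3, and 43.7 and 31.1 CPM at 18 h. It passed no test, and its 10 nM libraries lay below the others only at 18 h. RHOC, ROCK1 and ROCK2 passed none either.

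The ERM proteins tie actin to the membrane, and EZR and RDX were well read in every library. EZR, encoding ezrin, was at 392 and 264 CPM in vehicle, 759 and 425 at 100 pM and 661 and 660 at 10 nM at 6 h, and at 454 and 323, 860 and 479, and 766 and 633 CPM at 18 h. Both doses lay above vehicle without overlap at both times, which with 2 libraries a group is no test, and the doses overlapped each other. Only the value at 10 nM for 6 h passed (1.01 ± 0.35, edgeR adjusted p = 0.0471), a call lost when any of the 4 libraries was left out. The others were 0.85 ± 0.35 at 100 pM for 6 h, 0.79 ± 0.35 at 100 pM for 18 h and 0.85 ± 0.35 at 10 nM for 18 h (edgeR adjusted p = 0.372, 0.202 and 0.0971), and with replicate number in the fit all 3 passed (edgeR adjusted p = 0.0167, 0.0114 and 0.00299). RDX, encoding radixin, passed no test. MSN, encoding moesin, was almost unread without the higher dose, with 0 and 4 counts in vehicle and 1 and 1 at 100 pM at 6 h. At 10 nM it had 13 and 12 counts at 6 h and 206 and 138 at 18 h, where vehicle had 4 and 3 and 100 pM 5 and 3. The 18 h counts were 50.7 times those of vehicle per library size (exact 95% interval 24.3 to 127, for counting error only). In edgeR the log2 fold change was 5.62 ± 0.60 (edgeR adjusted p = 0.000159). MSN passed the filter on low counts only through its 10 nM libraries, so its calls describe these counts and are not separate support for a rise. At 6 h the ratio was 6.84 (2.36 to 27), and that call was lost without either 10 nM library.

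In the YAP and Hippo group of 7, the calls at 10 nM went in both directions at each time. CYR61 alone rose at 6 h while AMOTL2, YAP1 and WWTR1 fell (all genes, 22.6% up and 19.4% down). At 18 h WWTR1 alone rose while CTGF, AMOTL2 and LATS2 fell (all genes, 19% up and 15.2% down). CTGF, a secreted matricellular protein and common readout of YAP, was at 10.8 and 6.3 CPM in vehicle, 12.5 and 5.48 at 100 pM and 6.48 and 4.57 at 10 nM at 6 h, with overlapping groups. At 18 h it was at 11.7 and 13 CPM in vehicle, 7.4 and 5.57 at 100 pM and 1.75 and 1.26 at 10 nM. The groups then followed the dose without overlap, and CTGF fell by 3.03 on the log2 scale at 10 nM (SE 0.45, edgeR adjusted p = 0.001), the largest fall among the 54. At 100 pM the value was -0.93 ± 0.40 and did not pass (edgeR adjusted p = 0.186). Its promoter is the window above with 3 TEAD cores.

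CYR61, its close relative and the other usual YAP readout, behaved differently. It was at 260 and 179 CPM in vehicle, 345 and 304 at 100 pM and 348 and 304 at 10 nM at 6 h, and at 283 and 268, 280 and 289, and 227 and 204 CPM at 18 h. The doses matched each other at 6 h, with 0.57 ± 0.16 at 100 pM (edgeR adjusted p = 0.133) and 0.57 ± 0.16 at 10 nM (edgeR adjusted p = 0.0211; not met without vehicle replicate 3 or 10 nM replicate 1). At 18 h the value at 10 nM was -0.35 ± 0.16 and did not pass (edgeR adjusted p = 0.129).

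AMOTL2 and AMOTL1 encode angiomotin-like proteins, which bind YAP and F-actin, and AMOTL2 is itself a YAP target. AMOTL2 was at 272 and 222 CPM in vehicle, 275 and 214 at 100 pM and 144 and 111 at 10 nM at 6 h, and at 277 and 256, 240 and 187, and 104 and 81.7 CPM at 18 h. Only the 10 nM libraries were low at 6 h, and it fell there by 0.96 (SE 0.20, edgeR adjusted p = 0.00507) and by 1.52 (SE 0.20, edgeR adjusted p = 0.000595) at 18 h. AMOTL1 lay at 32.4 and 19.7, 27.7 and 15.4, and 77.5 and 43.3 CPM at 6 h and at 33.1 and 22.5, 14.9 and 10.8, and 84.7 and 47.6 CPM at 18 h. Its 10 nM libraries were the highest and, at 18 h, its 100 pM libraries the lowest, but replicates differed widely and neither 10 nM value passed against vehicle (1.21 ± 0.43 and 1.25 ± 0.43, edgeR adjusted p = 0.0509 and 0.0541). Between the doses AMOTL1 was higher at 10 nM at both times (1.49 ± 0.44, edgeR adjusted p = 0.027, and 2.36 ± 0.45, edgeR adjusted p = 0.00538). With replicate number in the fit AMOTL1 passed at 18 h at both doses, downwards at 100 pM and upwards at 10 nM.

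YAP1 was at 333 and 346 CPM in vehicle, 330 and 305 at 100 pM and 267 and 232 at 10 nM at 6 h, and at 319 and 331, 340 and 310, and 385 and 355 CPM at 18 h. WWTR1 was at 58.6 and 55, 65.4 and 61.3, and 44.9 and 47.5 CPM at 6 h and at 60.3 and 58.3, 67 and 64.3, and 79.2 and 87.7 CPM at 18 h. Both genes were lowest at 10 nM at 6 h and highest at 10 nM at 18 h. YAP1 fell by 0.44 (SE 0.10) at 6 h and stood at 0.19 ± 0.10 at 18 h (edgeR adjusted p = 0.17), while WWTR1 fell by 0.30 (SE 0.08) and then rose by 0.49 ± 0.08 (edgeR adjusted p = 0.00158). The 6 h call of WWTR1 was lost without vehicle replicate 1 or 10 nM replicate 1. LATS2, a kinase that phosphorylates both, was at 47.6 and 43.1, 45.2 and 41.3, and 41.3 and 38.8 CPM at 6 h and at 48.2 and 52.2, 43.3 and 41.3, and 35.1 and 31.7 CPM at 18 h. At 18 h its groups followed the dose without overlap, with a fall of 0.59 at 10 nM (SE 0.09, edgeR adjusted p = 0.00152).

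**Figure D3:**
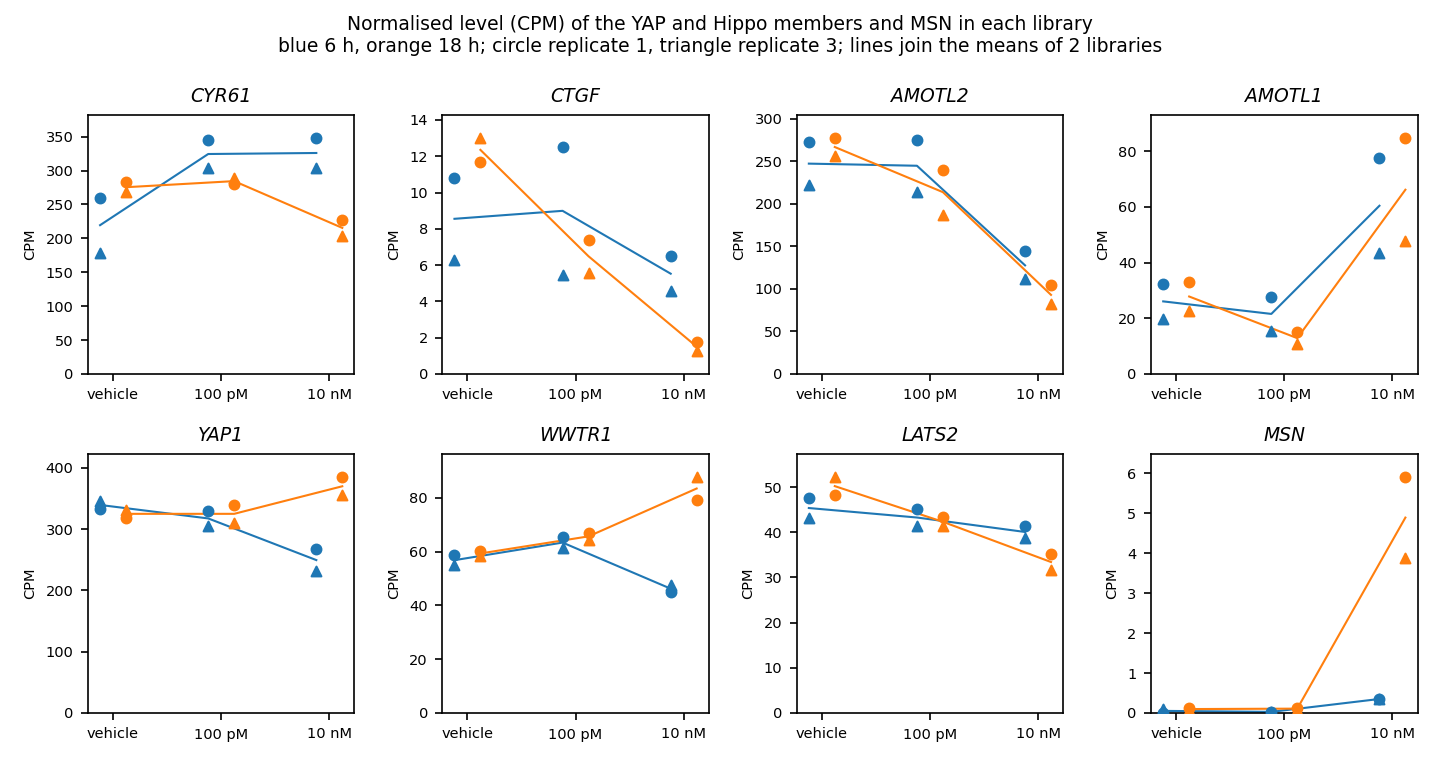
CPM in every library for the 7 YAP and Hippo genes and MSN by dose, at 6 h (blue) and 18 h (orange), with a circle for replicate 1, a triangle for replicate 3 and lines through the group means, each panel on its own axis from 0. CTGF, AMOTL2 and LATS2 are lowest at 10 nM for 18 h, where WWTR1 is highest.

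Of the adhesion kinases and their scaffold, BCAR1 rose at both times and PTK2, encoding focal adhesion kinase, and SRC passed no test. BCAR1, encoding p130Cas, a substrate of both kinases, was at 101 and 82.8 CPM in vehicle, 106 and 67.4 at 100 pM and 303 and 284 at 10 nM at 6 h. The 18 h values were 126 and 97, 119 and 87.9, and 205 and 169 CPM. Vehicle and 100 pM overlapped and 10 nM lay above both at each time, by 1.67 ± 0.24 (edgeR adjusted p = 0.000758) and 0.75 ± 0.24 (edgeR adjusted p = 0.0401). The 18 h call was lost when any of the 4 libraries was left out.

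Between 6 h and 18 h the response to 10 nM moved down across most of the 54 genes. The difference between the responses (18 h minus 6 h) was negative for 45 of 54, with a median of -0.40, while over all 13872 genes 6809 were negative and the median was 0.01. Here too the 54 had been chosen with earlier results of these data known. In the test of the difference itself 2 genes passed upwards, YAP1 and WWTR1, and 11 downwards, against 4.55% and 5.99% of all genes (10.5% in either direction). With replicate number in the fit 31 passed, 3 upwards and 28 downwards, where 35.1% of all genes did. The vehicle libraries enter this difference, and from 6 h to 18 h they moved slightly the other way, with a median of 0.10 over the 54 genes and no gene called.

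By role, the downward differences lay in crosslinkers and plaque proteins (PXN -1.15 ± 0.17, VCL -0.93 ± 0.25 and ACTN4 -0.74 ± 0.10), in LIM proteins (PALLD -1.51 ± 0.16, ZYX -1.31 ± 0.29 and LIMA1 -0.98 ± 0.11), in the myosin and calponin genes (MYH9 -0.83 ± 0.19, CNN2 -0.78 ± 0.15 and MYH10 -0.39 ± 0.10), and in the YAP targets CTGF (-2.41 ± 0.59) and CYR61 (-0.93 ± 0.23). The upward ones were WWTR1 (0.79 ± 0.11) and YAP1 (0.63 ± 0.14). All 6 crosslinkers and plaque genes and all 12 tropomyosin, myosin and calponin genes had a negative difference. ACTN4, LIMA1, PALLD, PXN and WWTR1 passed whichever library was left out, and the other 8 did not. Among those 8, the calls of CTGF, VCL and MYH10 were lost whichever library was left out. FLNA, at -1.26 ± 0.37, did not pass (edgeR adjusted p = 0.0647).

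Sorted by their calls at 10 nM, 10 of the 54 genes rose at both times (ACTN1, ARPC2, BCAR1, DIAPH1, EVL, MSN, PDLIM1, RHOB, VASP and VCL), against 12.9% of all genes, and 4 fell at both (AMOTL2, PDLIM5, PDLIM7 and TPM2), against 9.29%. MSN was tested only because of its reads at 10 nM. ACTN4, LIMA1 and ZYX rose at 6 h and fell at 18 h, a course that 0.469% of all genes took, and WWTR1 alone took the reverse course, against 0.382%. CNN2, CYR61, EZR, MYH9 and PXN rose at 6 h and were not called at 18 h (9.17% of all genes). Among the courses with a call, not called at 6 h and down at 18 h held the most genes, 11 (CNN3, CTGF, ENAH, FLNA, LATS2, MYH10, MYL12B, MYL9, PALLD, TAGLN2 and TPM1), against 5.4% of all genes.

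**Figure D4:**
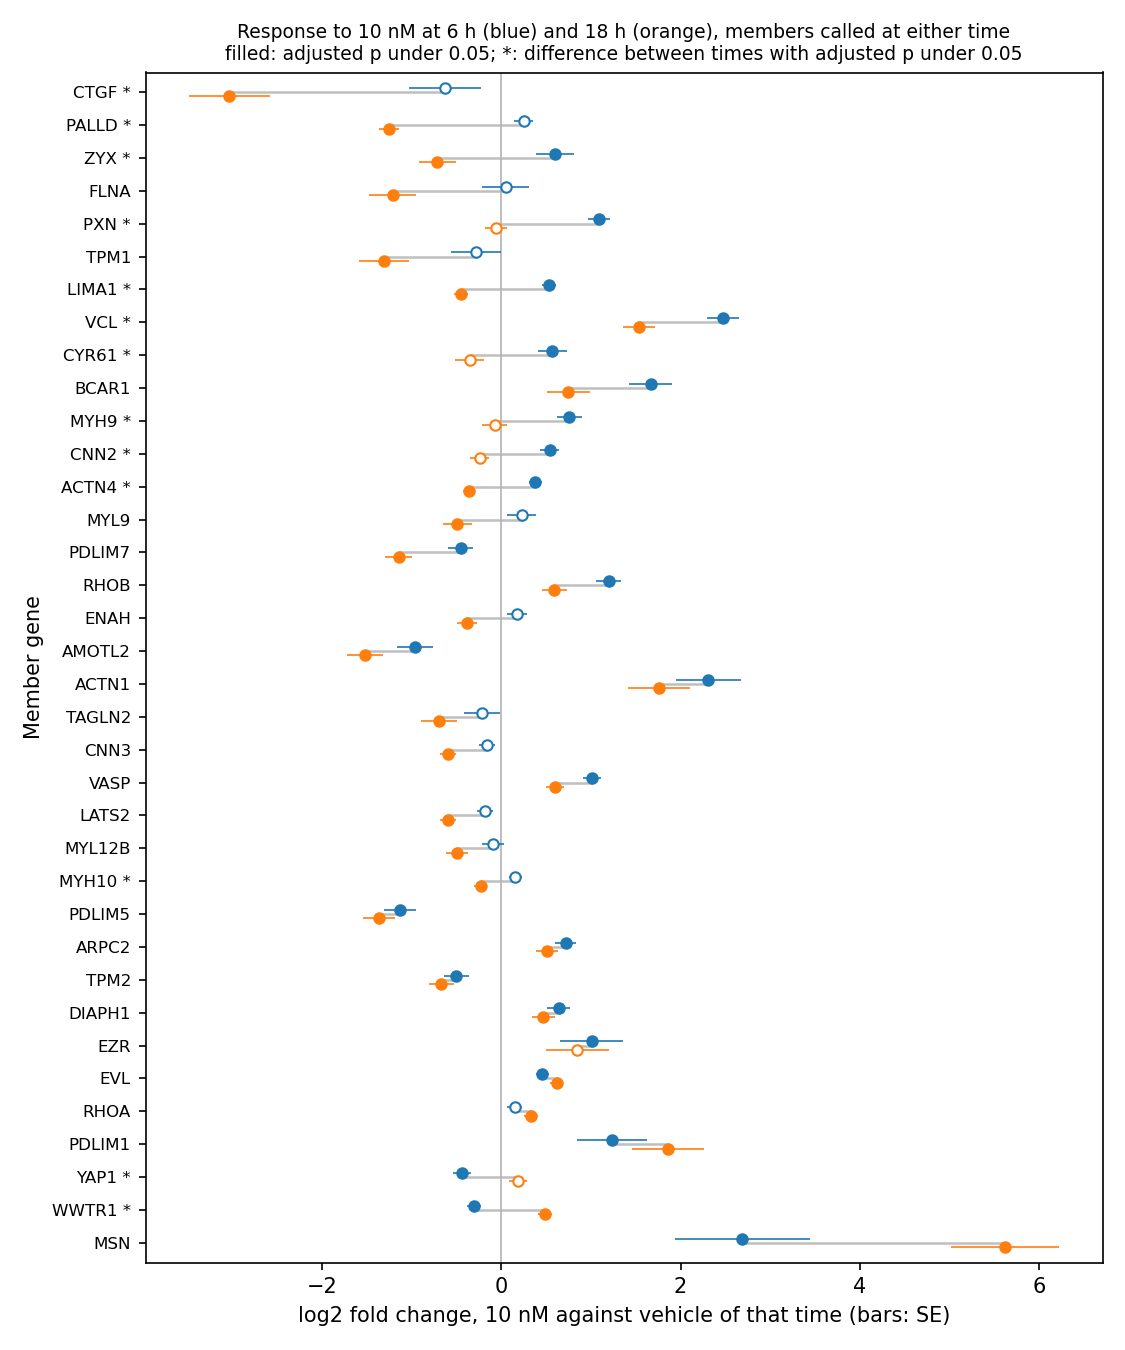
Log2 fold change at 10 nM against vehicle of the same time (horizontal axis, bars are SE) at 6 h (blue) and 18 h (orange) for members called at either time, filled where the edgeR adjusted p was under 0.05 and ordered by the difference, with * where the difference passed. Most orange points lie to the left of the blue ones; WWTR1, YAP1 and MSN lie among the exceptions.

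For the response to 100 pM, edgeR called a difference between the times in none of the 54 genes (0 called, 3 with an unadjusted p under 0.05 and 1 called in DESeq2), and 0.0144% of all genes were called. With replicate number in the fit 4 passed, all downwards (EVL, MYL9, LPP and AMOTL1), where 5.6% of all genes did. That a gene passed at 10 nM and not at 100 pM does not show that its shifts differ between doses.

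Set directly against 100 pM, 10 nM gave 15 higher and 6 lower genes at 6 h, against 20.1% and 16.8% of all genes (37% in either direction), and 9 higher and 17 lower at 18 h, against 14.8% and 11.4% (26.2%). Since these share the 10 nM libraries with the comparisons above, they are not independent of them. The share of all genes that took each of the courses over both times named next is not given here. Whether those courses were more common among the members than among all genes was not tested. MSN, VCL, BCAR1, EVL, RHOB, VASP, ARPC2 and AMOTL1 were higher at 10 nM at both times, and CDC42EP3, AMOTL2, PDLIM5 and TPM2 were lower at both. MSN, included in the counts of higher genes, was tested only because of its reads at 10 nM. Its calls are therefore not separate support. Of the 12 genes just named, only VCL, EVL and AMOTL2 kept both calls whichever library was left out. The 2 calls of TPM2 were lost in each such fit and with 1 time alone (edgeR adjusted p = 0.06 at 6 h and 0.0833 at 18 h), and that of CDC42EP3 at 18 h was lost in 3 of 4 (edgeR adjusted p of 0.085 to 0.142). PALLD, ACTN4 and CNN2 were higher at 10 nM at 6 h and lower at 18 h, for PALLD by 0.51 ± 0.11 and -0.80 ± 0.11, and WWTR1 was lower and then higher (-0.46 ± 0.08 and 0.35 ± 0.08). None of these 4 kept both calls in every fit with a library left out. ACTN4 lost its 18 h call in all 4 and with 18 h alone (edgeR adjusted p = 0.0954). CNN2 lost its 6 h call in all 4, and its 18 h call in 3 of 4 and with 18 h alone (edgeR adjusted p = 0.114). PALLD lost only its 6 h call, without 100 pM replicate 3 (edgeR adjusted p = 0.0634), and WWTR1 its 18 h call, without replicate 3 of either dose (edgeR adjusted p = 0.0743 and 0.0773) and with 18 h alone (edgeR adjusted p = 0.057). The 18 h count fell to 15 without 10 nM replicate 1, to 16 without 100 pM replicate 3 and to 17 without 10 nM replicate 3.

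Neighbouring genes of the same pathways, taken from lists of pathway genes outside the 54, moved as follows. Of 49 other actin genes, 15 rose and 6 fell at 10 nM for 6 h, where 22.6% of all genes rose and 19.4% fell. At 18 h 11 rose and 10 fell, where 19% and 15.2% of all genes did, so in both directions together the counts were close to the background at 6 h and above it at 18 h. PFN2, a profilin known best from neurons, rose 1.99 ± 0.07 at 6 h and 2.93 ± 0.07 at 18 h, whereas the member PFN1 did not pass. BAIAP2 (IRSp53), which bends membranes with actin, rose 2.44 ± 0.11 at 6 h, and CORO1B, a coronin of branched networks, was lower at 10 nM than at 100 pM at 18 h (-1.33 ± 0.08), with a downward shift between times at 10 nM (-0.91 ± 0.10).

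Of 27 other adhesion genes tested, 10 rose and 4 fell at 10 nM for 6 h (42% of all genes called in either direction), and 7 rose and 4 fell at 18 h (34.1%). VAV2, a guanine nucleotide exchange factor, rose 1.43 ± 0.06 at 10 nM for 6 h, and PARVA, a parvin of the complex around integrin-linked kinase, rose at 100 pM at both times (0.94 ± 0.08 and 0.90 ± 0.08). TNS4, a tensin, was lower at 10 nM than at 100 pM at 18 h (-1.33 ± 0.13).

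In the Hippo and TEAD list 7 of 23 tested genes rose and 4 fell at 10 nM for 6 h, close to the 42% of all genes called in either direction. At 18 h 4 rose and 8 fell, against 19% and 15.2% of all genes. LIMD1, a LIM protein that binds LATS, was higher at 10 nM than at 100 pM at 6 h (1.41 ± 0.09), and WWC1, encoding KIBRA, at 18 h (1.44 ± 0.13). The 10 nM response of TEAD4, a DNA-binding partner of YAP, was lower at 18 h than at 6 h (-1.06 ± 0.13). Of 14 tested YAP targets outside the 54, 3 rose and 2 fell at 10 nM for 6 h (42% of all genes in either direction), and 1 rose and 6 fell at 18 h (34.1%). TGFB2 fell at 18 h from 85.5 CPM in vehicle to 19.8 at 100 pM (-2.11 ± 0.21) and 4.10 CPM at 10 nM (-4.38 ± 0.24), while F3, encoding tissue factor, rose at 100 pM for 6 h from 4.15 to 25.9 CPM (2.64 ± 0.38). Of 7 tested genes of the SRF list, 1 rose and 3 fell at 10 nM for 6 h and 1 rose and 2 fell at 18 h, against the same shares. The 3 that fell at 6 h were barely read, at no more than 2.8 CPM in vehicle. The 1 that rose at 6 h went from 44.6 to 69 CPM.

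Some of the counts may hold reads of a neighbour, since the strand setting of the counting is not given in the sources used here. ACTN4, VCL, ZYX, PALLD, MYH10 and EVL each overlap another gene of the table (CAPN12, AP3M1, FAM131B, CBR4, NDEL1 and DEGS2 in that order). The share of mitochondrial reads, 6.69% to 10.8%, was above that of replicate 1 in the replicate 3 library of every group, and FLNA, LPP, ROCK2 and AMOTL1, among others, were higher in replicate 1 in each group; the part of either in the results was not tested.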

How the data were processed

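Total RNA was made into Nextera libraries, per the labels' protocols. The authors deposited 1 table of raw read counts by gene symbol, with 12 library columns, all used. The submitters' processing notes name STAR, DESeq2 and hg19 without versions. Each of the counter, annotation, strand setting and filters is not given in the sources used here.

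From the counts on, filterByExpr on the group labels kept 13872 of 20114 symbols, libraries were scaled by TMM, and 1 edgeR quasi-likelihood fit (robust) with a coefficient per group and 6 residual degrees of freedom gave every comparison. A call was a Benjamini-Hochberg adjusted p under 0.05 over all genes tested. The tools were edgeR 4.0.16 and, for alternatives, DESeq2 1.42.0 in R 4.3.3, and the fit was tested on simulated data. SE is the log2 fold change divided by the square root of F.

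The 54 members, their role groups and the surrounding lists were chosen with earlier results of these data known. Values in every library are given for the called members with the largest changes (up to 5 up and 5 down in each dose comparison), for 15 members always reported (CYR61, CTGF, AMOTL2, YAP1, WWTR1, LATS2, RHOB, RND3, ACTN1, FLNA, MYH9, MYL9, TPM1, VCL and ZYX), and for members that the doses moved in opposite directions. From the surrounding lists, the 4 called genes with the smallest adjusted p in a comparison are named, apart from genes of 1 list. That list and the counts of 1 role group are not reported here. Alternatives were the replicate number as a block, DESeq2, RLE factors, no filter, a fit to 1 time alone, and each library left out. Promoter windows come from RefSeq on another build and were matched by symbol.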

Additional observations from a re-analysis of the deposited data

Results flagged for a closer look

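For 13 of the 54 genes the response to 10 nM differed between 18 h and 6 h in the test of that difference (edgeR adjusted p from 0.00209 to 0.0486, 2 libraries in each of the 4 groups used). The differences in log2 response were -2.41 for CTGF, -1.51 for PALLD, -1.31 for ZYX, -1.15 for PXN, -0.98 for LIMA1, -0.93 for CYR61, -0.93 for VCL, -0.83 for MYH9, -0.78 for CNN2, -0.74 for ACTN4 and -0.39 for MYH10, and 0.63 for YAP1 and 0.79 for WWTR1. Those of ACTN4, LIMA1, PALLD, PXN and WWTR1 passed whichever of the 8 libraries was left out. Those of CTGF, VCL and MYH10 were lost whichever of them was left out. Groups of 2 allow no check for a single library that stands apart.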

How the results depend on the processing

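No call among the 54 genes changed direction under any alternative that was run, and no call was lost with DESeq2, RLE factors or the replicate block; without the filter 3 single-gene calls were lost and with 1 time alone 15. The replicate number as a block raised the count of called members from 2 to 9 and from 2 to 22 at 100 pM (6 h and 18 h), from 0 to 4 for the difference between times at 100 pM and from 13 to 31 at 10 nM. In the same order, that fit called 12.2%, 34.1%, 5.6% and 35.1% of all genes, against 3.48%, 10.5%, 0.0144% and 10.5% in the main fit. Libraries with the same number deviated together (r of 0.464 to 0.677 across genes, median 0.558, over 15 pairs of groups), and the labels do not say what the number shares. DESeq2 gave 4, 8, 1 and 21 members for those 4 counts. Over all genes it called 849, 2231, 111 and 2316, against 483, 1450, 2 and 1462 in the main fit. The fit to 6 h alone gave 1 member at 100 pM, where it called 340 of all genes. With 1 library left out, the counts ran from 0 to 2 and from 1 to 1 at 100 pM, from 17 to 21 and from 20 to 24 at 10 nM, from 16 to 18 and from 15 to 19 between the doses, and from 5 to 9 for the difference between times at 10 nM. Those fits take the single library of the reduced group to have the spread of the other groups. For each of these comparisons they also called fewer of all genes than the main fit did. Of the main calls, 16 of 24 at 10 nM for 6 h and 17 of 30 at 18 h were kept in each such fit. Groups of 2 limit every comparison, and low counts limit MSN.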
